A study of Saccharomyces cerevisiae with 12 samples.

Results

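How far the response of yeast to sodium azide depends on SCD6 was measured as a difference of responses. For each gene, the log2 fold change with azide in cells lacking SCD6 (Δscd6) had the log2 fold change with azide in the wild type taken from it. The rule took every gene of the tables, 6352 of 6352, and chose none by its values. A difference above 0 means that the transcript rose more, or fell less, in Δscd6 than in the wild type, and a difference below 0 the reverse. The groups were the wild type BY4741, a haploid laboratory strain of Saccharomyces cerevisiae, and its SCD6 deletion, each untreated and in azide, with 2 libraries a group and 8 in all. Cells were grown in rich glucose medium (YEPD) to an optical density of 0.4 to 0.5, and the treated cultures held 0.5% sodium azide for 30 minutes. An SBP1 deletion (Δsbp1) under the same conditions, the remaining 4 of 12 libraries, served for comparison. The labels give no number of clones for a deletion strain and do not say that libraries of a group are separate cultures, and the p-values cover the spread among these libraries alone, and it may be technical.

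Azide blocks cytochrome c oxidase and ATP synthesis, and yeast answers with a general stop of translation initiation. Untranslated mRNA then gathers in P bodies, which hold decapping and decay factors, and in stress granules, which hold initiation factors and poly(A)-binding protein. Scd6 is an RNA-binding protein with an RGG motif that binds the initiation factor eIF4G, represses translation and promotes decapping, and it enters these granules under stress. Sbp1 is another RGG-motif repressor that binds eIF4G. Whether the transcript response to azide differs without such a repressor is the question that the difference addresses.

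The tables held comparisons and no value per library. Each gene had the authors' mean normalised read count over the libraries, a fold change and a p-value in each comparison. A level per group, called a rebuilt mean below, was obtained by sharing that mean count out over the 6 groups by the fold changes, on the assumption that the mean spans 12 libraries in groups of 2, and it carries no replicate error. A standard error of each fold change was implied by its size and its p-value. Its median was 0.24 for the response of the wild type and 0.34 for the difference, both on the log2 scale. Errors after ± are such standard errors (SE), and the p of a difference comes from a two-sided normal test, adjusted by Benjamini-Hochberg over the 6331 genes that had one. A gene is called where that adjusted p was under 0.05. The smallest called difference was 0.87 in size, so smaller ones were not detectable at this precision. Just inside the limit lay HAP3 (-1.32) and ENV11 (1.04), and just outside it YDR215C (-2.08) and CDC21 (0.87), as a description.

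The deleted gene checks the labels. The rebuilt mean of SCD6 went from 1054 to 807 in the wild type and from 13.6 to 35.9 in Δscd6, and the residual signal of the deleted gene rose with azide in Δscd6 (1.40 in the authors' deposited table), a difference of 1.79 ± 0.49 (adjusted p = 0.014) at under 5% of the wild type level. The neighbours of SCD6 on its chromosome were ANT1, at 0.04 ± 0.30 (adjusted p = 0.97), and NAT3, at -0.16 ± 0.33 (adjusted p = 0.83). BY4741 is mating type a: the a genes STE2 and MFA1 had mean counts of 5508 and 720.0 and the alpha gene STE3 one of 62.1. The alpha gene SAG1 had a mean count of 484, so not every alpha gene was low. None of the 8 mating type a genes was called.

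For most genes no difference between the strains was detected, and 261 of 6331 genes tested (4.12%) were called different. Of these, 138 (2.18%) had the higher response in Δscd6 and 123 (1.94%) the lower one. In the authors' deposited tables, at an adjusted p under 0.05, 21.3% of genes rose and 20.6% fell with azide in the wild type, and 22.1% rose and 20.4% fell in Δscd6. Across the 6352 genes, whose values share libraries within each strain, the responses had a Pearson r of 0.71 and a least-squares slope of 0.75 of Δscd6 on the wild type, given as a description. The authors' deposited tables called 1969 genes in 1 strain and not in the other, and only 161 of those (8.18%) passed the test of the difference itself. The median difference over all genes was 0.05, with an interquartile range of -0.34 to 0.40. The split into higher and lower calls depends on the scaling: with groups set to equal totals every difference moved up by 0.24, and 614 genes were then called higher and 96 lower.

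The differences followed the base composition of the genes, and this bears on every gene group below. The coding region of the median gene had 39.6% GC, against 37.5% for genes called higher and 43.5% for genes called lower. Across 5764 genes matched to the reference annotation, the difference and GC content had a Spearman rho of -0.54, as a description. In 10 equal groups of rising GC content the median difference went from 0.43 in the first group to -0.74 in the last. The first group held 40 genes called higher and 1 called lower, and the last held 0 called higher and 43 called lower. When each difference was centred on the median of genes of like GC content (20 bins, an alternative chosen after the data were seen), 88 genes were called, 38 higher and 50 lower, and 74 of them had been called in the same direction without centring, which is 31.2% of the 237 called genes with a reference match and 84.1% of the 88. Beside each gene group its GC content and its centred value are therefore given. Whether single libraries carry the gradient could not be examined, as no value per library was used here.

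**Figure D1:**
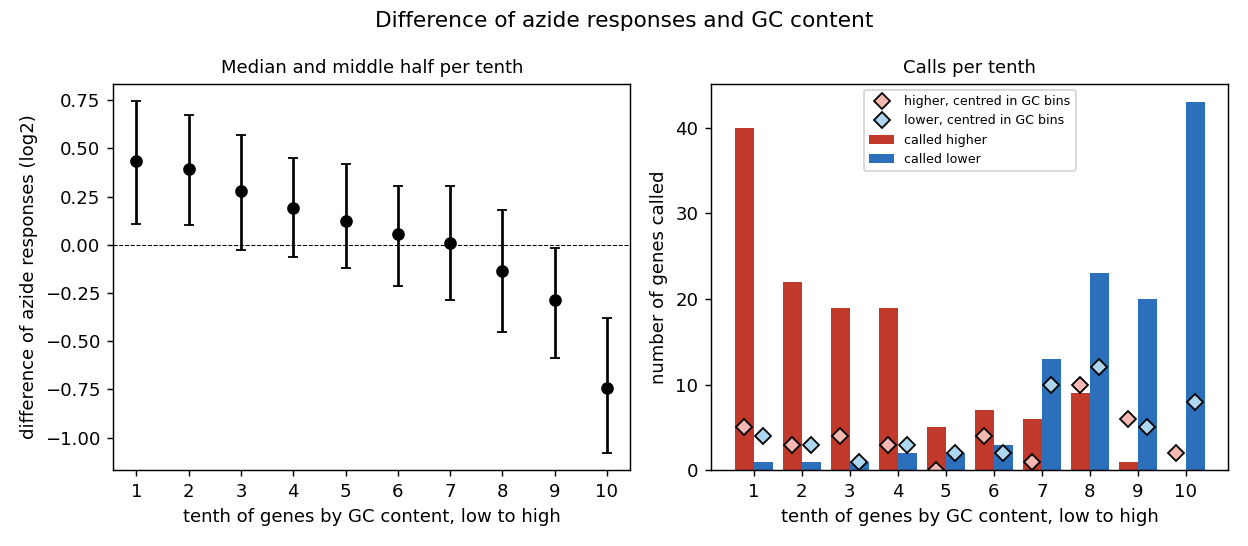
The left panel plots the median difference of azide responses (log2, Δscd6 minus wild type) with its interquartile range for genes in 10 equal groups of rising GC content, and the right panel the number of genes called higher or lower in each group, as bars, and after centring in GC bins, as diamonds. The medians run from 0.43 to -0.74, with 40 higher calls in the first group and 43 lower calls in the last.

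By the direction of both responses the called genes fell into 5 classes. In 51 genes the transcript was lowered less in Δscd6 than in the wild type, with median responses of -1.73 (wild type) and -0.57 (Δscd6). In 34 genes it was raised more, with medians of 0.93 and 2.54. In 41 genes it was raised less, with medians of 2.18 and 0.72, and in 12 genes it was lowered more. The last 123 genes had responses of opposite sign, 53 of them higher and 70 lower in Δscd6. For 24 of these both responses passed the authors' own test, 15 with a rise in the wild type and a fall in Δscd6 and 9 the other way. These counts describe the values that made the classes and carry no test.

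**Figure D2:**
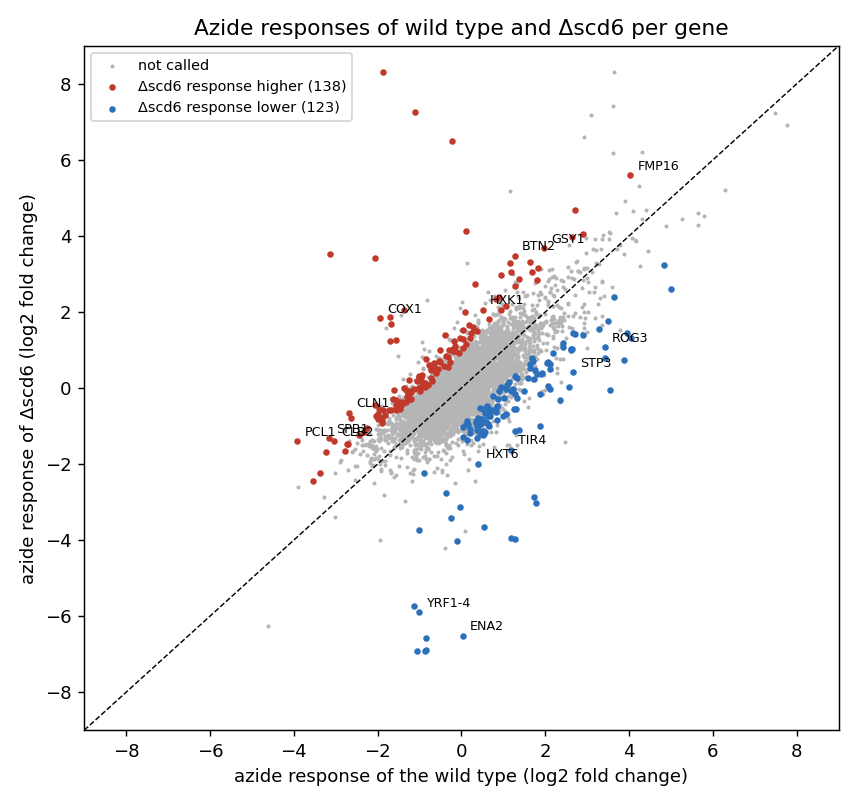
Each point is a gene, with the azide response of the wild type on the horizontal axis and that of Δscd6 on the vertical axis (log2 fold changes), and the dashed line marks equal responses. The 138 genes called higher in Δscd6 (red) lie above the line and the 123 called lower (blue) below it.

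Several cell cycle genes were lowered less by azide in Δscd6. Of 14 G1 cyclins and their regulators 4 were called higher and 0 lower, of 19 mitotic regulators 4 and 0, and of 26 replication and nucleotide reductase genes 2 and 0. The median differences of these lists were 0.53, 0.39 and 0.43, against 0.05 over all genes, where 2.18% were called higher. The strongest was PCL1, a cyclin that activates the kinase Pho85 at the start of the cycle. Its rebuilt mean went from 681 to 45.1 in the wild type and from 935 to 357 in Δscd6. The difference was 2.53 ± 0.39 (adjusted p = 7.4e-08), with a 95% interval of 1.76 to 3.30, and it lay mainly in the azide state, where the authors' deposited table put Δscd6 above the wild type by 2.98 (adjusted p = 6.5e-21), against 0.46 untreated (adjusted p = 0.3). CLN1, a G1 cyclin of the kinase Cdc28, went from 678 to 106 in the wild type and from 759 to 483 in Δscd6. That is a difference of 2.03 ± 0.34 (adjusted p = 2.1e-06). In both genes the treated Δscd6 cells kept several times the level of treated wild type cells.

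The mitotic cyclin CLB2 went from 965 to 117 in the wild type and from 775 to 294 in Δscd6, a difference of 1.65 ± 0.35 (adjusted p = 0.00057). CLB6, an S-phase cyclin of low count, differed by 1.85 ± 0.50 (adjusted p = 0.012), and SWI5, which activates genes at the end of mitosis, by 1.20 ± 0.31 (adjusted p = 0.0084). SWI4, the DNA-binding subunit of the G1 factor SBF, differed by 1.36 ± 0.34 (adjusted p = 0.0063). POL30, the sliding clamp of DNA polymerase, went from 1621 to 397 in the wild type and from 1391 to 841 in Δscd6, a difference of 1.30 ± 0.32 (adjusted p = 0.0037). RNR1, the large subunit of ribonucleotide reductase, fell in both strains in the authors' deposited tables (wild type -3.36, Δscd6 -2.22) and differed by 1.14 ± 0.34 (adjusted p = 0.03). The called members outside the naming rule, named after their values were seen, were HO, the mating-type endonuclease (1.09, adjusted p = 0.024), and CDC5, the polo kinase (1.12, adjusted p = 0.0054). Of 11 histone genes 0 were called. All 11 lay above 0, where 54% of all genes did, with a median of 0.37 and of 0.47 after centring. These genes were measured in the same libraries, so that count carries no test. HHF1, a histone H4 gene with the largest difference, gave 0.67 ± 0.35 (adjusted p = 0.26).

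The naming rule also gave MYO1, GIN4 and PDS5 among the smaller falls. MYO1, the myosin of the cytokinetic ring, went from 1223 to 399.7 in the wild type and from 746 to 723 in Δscd6, a difference of 1.57 ± 0.32 (adjusted p = 0.00029). GIN4, a kinase at the septin ring, differed by 1.42 ± 0.29 (adjusted p = 0.00019), and PDS5, a cohesin maintenance factor, by 1.62 ± 0.34 (adjusted p = 0.00049). All of these fell in the wild type in the authors' deposited table, by 1.61, 1.97 and 2.06, while in Δscd6 only GIN4 passed that test (-0.55).

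The cell cycle lists had median GC contents of 39.5%, 38.9% and 39.9%, and their medians after centring in GC bins were 0.26, 0.44 and 0.30. PCL1 (2.88, adjusted p = 4.6e-10), CLN1 (1.78, adjusted p = 0.0001), CLB2 (1.24, adjusted p = 0.038), POL30 (1.09, adjusted p = 0.042), GIN4 (1.18, adjusted p = 0.0067) and MYO1 (1.16, adjusted p = 0.03) were still called after centring. SWI4 (0.88, adjusted p = 0.19), CLB6 (1.37, adjusted p = 0.16), SWI5 (0.96, adjusted p = 0.091), RNR1 (1.08, adjusted p = 0.075) and PDS5 (1.14, adjusted p = 0.054) were not, and neither were HO and CDC5.

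**Figure D3:**
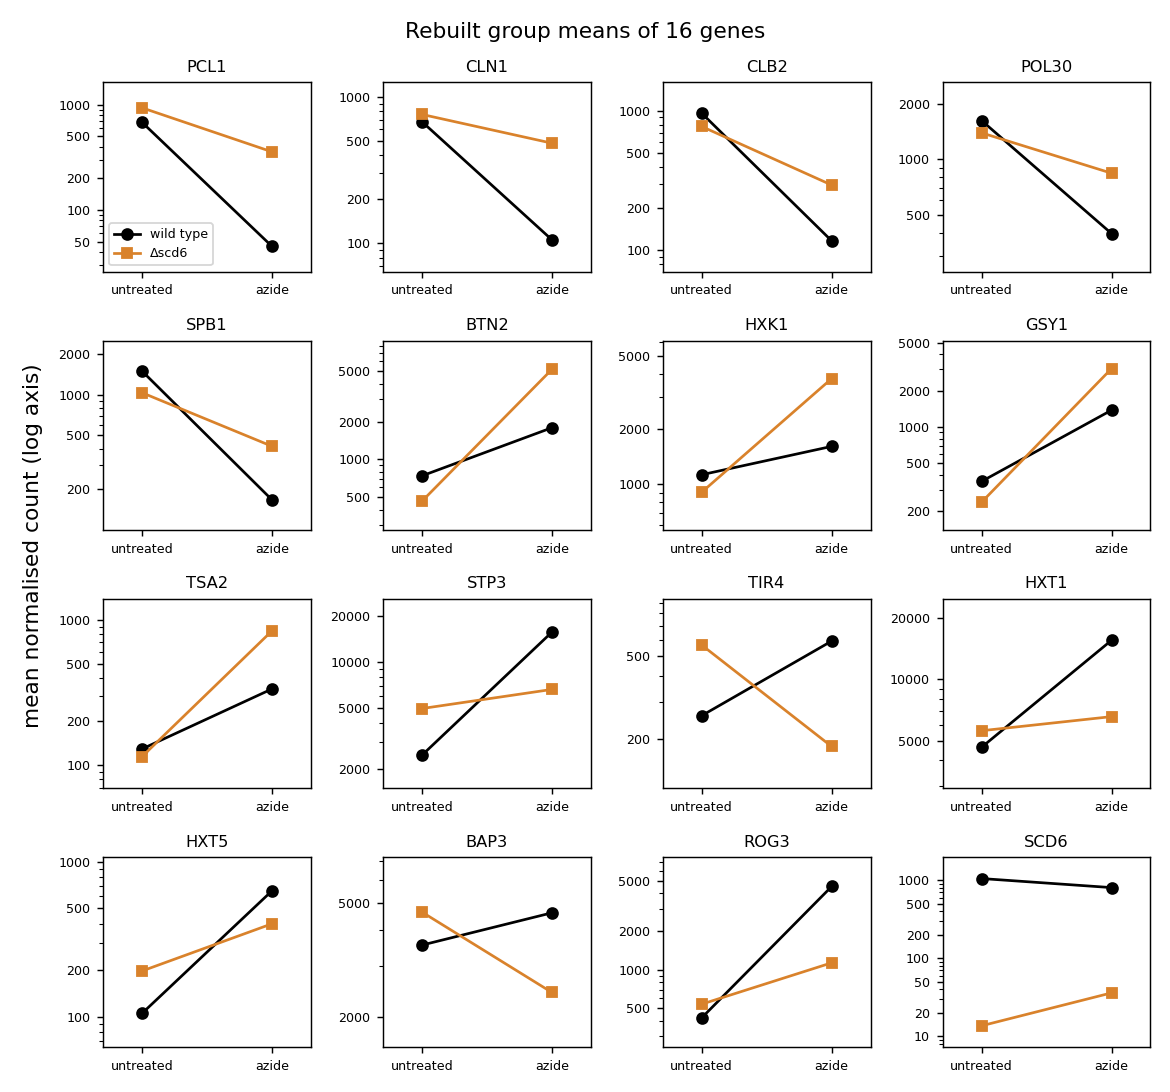
Rebuilt mean normalised counts (log axes, 1 panel a gene) of 16 genes, untreated and in azide, for the wild type (black circles) and Δscd6 (orange squares), with no replicate error. PCL1 ends at 45.1 in the treated wild type and at 357 in treated Δscd6, while STP3 and HXT1 end lower in Δscd6 and TIR4 and BAP3 cross over.

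The MluI cell cycle box, the letters ACGCGT bound by the G1 factor MBF, stood in the 500 bases before the start codon of 13 of 50 (26%) genes with a smaller fall in Δscd6, against 5.55% of all 5764 windows, on either strand. Of the lists, 0 of 14 G1 cyclin genes and 2 of 19 mitotic genes held it. Of the smaller falls of the rule named above, POL30, GIN4, RNR1, CLB6 and PDS5 held these letters. PCL1, CLN1, CLB2, SWI4 and MYO1 did not. The box was not alone in this class: AAAATTTT (RRPE motif) stood before 28%, against 12.8% of all windows. TTAGTAA (Yap1 site) stood before 22% against 11.9%, and CACGTG (Pho4 site) before 14% against 6.26%. GATGAG (PAC motif) was level at 28% against 27.8%, and TGACTC (Gcn4 site) scarcer at 4% against 13%. No share was taken over all genes that fell with azide in the wild type. Whether these letters mark that fall or the difference between the strains was not tested. The matches below show where ACGCGT lay, 30 bases each from the RefSeq sequence of assembly R64. They are on the strand of the gene, with the match in capitals. No source used here gives the authors' build, so the coordinates are those of R64 alone.
POL30, chrII:425944-425973, minus strand: ccaaaacgcgaaACGCGTaacttttttttt
GIN4, chrIV:1466079-1466108, minus strand: tcatcgaaggaaACGCGTcaaatccattcg
RNR1, chrV:298496-298525, plus strand: taaaaagaaaaaACGCGTaaacagtgtcgg
CLB6, chrVII:706887-706916, minus strand: aatagcagttttACGCGTaccacaaaattt

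Among ribosome assembly factors the share called was near that of all genes. Of 141 factors 5 were called higher, where 2.18% of all genes were, and 0 lower, with a median difference of 0.17. SPB1, a methyltransferase of the large ribosomal subunit, went from 1489 to 168 in the wild type and from 1031 to 416 in Δscd6, a difference of 1.84 ± 0.35 (adjusted p = 4.4e-05). RRP12, an export factor of both subunits, differed by 1.57 ± 0.43 (adjusted p = 0.011), and RRP5, an early processing factor of both subunits, by 1.25 ± 0.33 (adjusted p = 0.0097). The called members outside the naming rule were DBP10, a helicase (1.09, adjusted p = 0.019), and RLP24 (1.11, adjusted p = 0.048), both of the large subunit. The list had 38.6% GC and a centred median of 0.00, and SPB1 alone was still called after centring (1.62, adjusted p = 0.0012).

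Ribosomal proteins and translation factors gave no call. None of 139 cytosolic ribosomal protein genes passed in either direction, with a median of -0.05 that turned to 0.19 under equal totals. The largest in size was RPS14B, at -0.74 ± 0.43 (adjusted p = 0.33). None of 32 initiation, elongation and termination factors passed, with a median of 0.27, and NIP1, a subunit of eIF3, gave 1.00 ± 0.34 (adjusted p = 0.065). Of 75 mitochondrial ribosomal proteins only MRP7 passed, at 1.00 ± 0.32 (adjusted p = 0.047), and its centred value was 0.76 (adjusted p = 0.25).

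Several chaperone and aggregate-handling genes were raised more by azide in Δscd6. BTN2, a v-SNARE binding protein that gathers misfolded proteins for sorting, went from 741 to 1785 in the wild type and from 465 to 5180.2 in Δscd6. Its difference was 2.21 ± 0.43 (adjusted p = 6.9e-05), with a 95% interval of 1.37 to 3.05. APJ1, a J-protein that works with Hsp70, went from 429.9 to 1041 in the wild type and from 340.1 to 2174 in Δscd6, a difference of 1.40 ± 0.33 (adjusted p = 0.003). HSP82, the inducible Hsp90, differed by 1.17 ± 0.33 (adjusted p = 0.017), and HSP78, the mitochondrial disaggregase, by 1.06 ± 0.32 (adjusted p = 0.033). In none of them did the untreated strains pass the test of Δscd6 against the wild type in the authors' deposited table (adjusted p = 0.18, adjusted p = 0.43, adjusted p = 0.16 and adjusted p = 0.41). In azide BTN2, APJ1 and HSP78 passed that test (adjusted p = 2.4e-05, adjusted p = 0.00029 and adjusted p = 0.021). HSP82 did not pass in azide either (0.62, adjusted p = 0.12), and was at -0.56 untreated.

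The median difference was 0.50 over 27 cytosolic Hsp70 and Hsp90 genes, of which 2 were called higher, and 0.84 over 8 small heat shock and disaggregation genes, of which 1 was. Over all genes 2.18% were called higher. Members below 0 numbered 5 and 1. These lists did not lie at low GC, with medians of 41.3% and 41.6%, and their centred medians were 0.51 and 0.92. BTN2 (1.84, adjusted p = 0.004) and APJ1 (1.42, adjusted p = 0.0043) were called after centring, HSP82 (1.05, adjusted p = 0.075) and HSP78 (0.91, adjusted p = 0.13) were not. Of 33 proteasome genes RPN9, a subunit of the lid, was called at 1.14 ± 0.35 (adjusted p = 0.033), with a centred value of 0.67 (adjusted p = 0.43).

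The heat shock element core TTCNNGAA, read on both strands, where it is its own complement, stood before 17 of 27 (63%) Hsp70 and Hsp90 genes, against 21.5% of all windows, a share that follows from how the list is known to be regulated. It stood before 9 of 29 (31%) genes with a larger rise in Δscd6. The matches before BTN2, APJ1 and HSP82 are shown because these are the called members of both lists.
BTN2, chrVII:772099-772128, plus strand: gacacttttttTTCTAGAAagttccggaaa
APJ1, chrXIV:481085-481114, plus strand: cgctcgatttcTTCTAGAAcattacggaaa
HSP82, chrXVI:98842-98871, minus strand: ttttcttttttTTCTAGAAcgccgtggaag

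Some reserve carbohydrate and carbon genes were raised more in Δscd6. GSY1, a glycogen synthase, went from 352 to 1375 in the wild type and from 237 to 3043 in Δscd6, a difference of 1.72 ± 0.37 (adjusted p = 0.0005). GPH1, the glycogen phosphorylase, rose in both strains in the authors' deposited tables (2.65 and 3.97) and differed by 1.32 ± 0.35 (adjusted p = 0.0086). HXK1, a hexokinase made when glucose is scarce, went from 1127 to 1610.4 in the wild type and from 904 to 3783 in Δscd6, a difference of 1.55 ± 0.35 (adjusted p = 0.0017). After centring GSY1 (1.92, adjusted p = 7.3e-05), GPH1 (1.28, adjusted p = 0.022) and HXK1 (1.75, adjusted p = 0.0003) were all called. The 20 trehalose and glycogen genes had a median of 0.49 and of 0.44 after centring. Of them 2 were called higher and 0 lower, where 2.18% and 1.94% of all genes were.

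A few transcription factors of respiratory and nonfermentative growth gave a higher response in Δscd6, in lists most of whose members lay below 0. The 25 glucose-repressed carbon genes had a median of -0.47, with 18 below 0, 2 called higher and 0 lower. The 13 regulators of respiration and oxygen response had a median of -0.20, with 9 below 0, 1 called higher and 1 lower. Over all genes 2.18% were called higher and 1.94% lower. After centring the medians of these 2 lists were -0.17 and 0.11. HAP4, the activating subunit of the HAP complex, went from 564 to 996 in the wild type and from 267 to 1353 in Δscd6, a difference of 1.52 ± 0.40 (adjusted p = 0.0099). ADR1, an activator of alcohol and fatty acid use, differed by 1.36 ± 0.38 (adjusted p = 0.017), and SIP4, an activator of gluconeogenesis with a mean count of only 33.5, by 2.40 ± 0.69 (adjusted p = 0.019). After centring none of them was called, with 1.30 (adjusted p = 0.065), 0.99 (adjusted p = 0.19) and 1.92 (adjusted p = 0.13). In the authors' deposited tables HAP4 and SIP4 were below the wild type in untreated Δscd6 (-1.08, adjusted p = 0.013, and -1.92, adjusted p = 0.028), and in azide HAP4, SIP4 and ADR1 did not pass (adjusted p = 0.46, adjusted p = 0.65 and adjusted p = 0.097). HAP3, a DNA-binding subunit of the same complex as HAP4, went the other way at -1.32 ± 0.43 (adjusted p = 0.0498) and gave -0.40 (adjusted p = 0.82) after centring. Glycolytic and fermentation genes had a median of -0.48 and a high GC of 44.9%, and that median turned to 0.02 after centring.

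Of 32 general stress genes 2 were called higher and 1 lower, where 2.18% and 1.94% of all genes were. Their median was 0.00, and the centred median was 0.52. The higher calls were HXK1, given above, and GPX1, a phospholipid hydroperoxide glutathione peroxidase, which differed by 1.36 ± 0.41 (adjusted p = 0.031). The lower call was SPI1, a stress-induced wall protein, which went from 253 to 7214 in the wild type and from 444 to 4189.6 in Δscd6, a difference of -1.59 ± 0.41 (adjusted p = 0.0063). The 29 oxidative stress and redox genes also had 2 called higher, GPX1 again and TSA2, and 0 lower, with a median of 0.01 and of 0.29 after centring. TSA2, a stress-induced peroxiredoxin, went from 129 to 335 in the wild type and from 114 to 842 in Δscd6, a difference of 1.51 ± 0.36 (adjusted p = 0.003). After centring TSA2 was called (1.59, adjusted p = 0.0025), and GPX1 (1.06, adjusted p = 0.19) and SPI1 (-1.02, adjusted p = 0.2) were not.

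Among the genes raised most strongly beyond the wild type were PHR1, the DNA photolyase, with 2.03 ± 0.36 (adjusted p = 7.8e-06), and 2 genes of mitochondrial proteins of little known function, FMP33 with 1.88 ± 0.45 (adjusted p = 0.003) and FMP16 with 1.58 ± 0.49 (adjusted p = 0.037). FMP16 was raised in both strains, by 4.03 and 5.61 in the authors' deposited tables. All of them were called after centring, at 1.66, 1.83 and 1.79. MET6, the cobalamin-independent methionine synthase, fell less in Δscd6, with 1.12 ± 0.32 (adjusted p = 0.016) and 1.21 (adjusted p = 0.015) after centring.

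The stress response element, the letters CCCCT bound by Msn2 and Msn4, stood before 21 of 29 (72.4%) genes with a larger rise in Δscd6, before 20 of 36 (55.6%) with a smaller rise and before 11 of 50 (22%) with a smaller fall, against 34.4% of all windows, on either strand. Over all genes called higher it stood before 43 of 128 (33.6%), near the share of all windows, and over all called lower before 47 of 109 (43.1%). Windows of 500 bases can reach into a neighbouring gene. No share was taken over all genes that rose with azide in the wild type, for CCCCT or for TTCNNGAA. Whether these letters mark that rise or the difference between the strains was not tested. The matches nearest to the start codon are shown for HXK1, GSY1 and TSA2, which rose more in Δscd6.
HXK1, chrVI:255369-255398, minus strand: catttttttttaAGGGGttgatgaaaagaa
GSY1, chrVI:176706-176735, minus strand: ccacaagtaataCCCCTtggaggatttttc
TSA2, chrIV:1365913-1365942, minus strand: aagggctgatccCCCCTtacaattggcgtc

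Some genes of the cell surface were raised less, or lowered, in Δscd6. Of 34 structural cell wall proteins 0 were called higher and 6 lower, where 1.94% of all genes were called lower, with a median of -0.83. The median azide response of the list was 0.05 in the wild type, -0.79 in Δscd6 and -0.72 in Δsbp1, so it was negative in both deletion strains. TIR4, a mannoprotein made in the cold and without oxygen, went from 259 to 589.9 in the wild type and from 565 to 184 in Δscd6. It rose in the wild type (1.19) and fell in Δscd6 (-1.62) in the authors' deposited tables, a difference of -2.80 ± 0.43 (adjusted p = 7.2e-08), and was above the wild type before azide (1.12, adjusted p = 0.017) and below it in azide (-1.68, adjusted p = 1.6e-05). FLO11, the adhesin of invasive growth, differed by -1.82 ± 0.56 (adjusted p = 0.035), and PIR3, a wall protein bound by an ester link, by -1.62 ± 0.44 (adjusted p = 0.011). The remaining called members were SPI1, given above, and, outside the naming rule, FLO5, a flocculin (-1.18, adjusted p = 0.048), and PST1 (-1.08, adjusted p = 0.028). Wall protein genes are rich in GC, with a median of 45.8%, and their median after centring was -0.25. TIR4 alone was called after centring (-1.88, adjusted p = 0.0037), whereas FLO11 gave -1.25 (adjusted p = 0.3) and PIR3 -1.05 (adjusted p = 0.24). The 16 hypoxic genes had a median of -0.75, -0.22 after centring, with TIR4 as the only call.

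Some hexose transporters and their regulators gave lower responses in Δscd6, by smaller rises or by falls. Of 20 transporters and sensors 0 were called higher and 4 lower, where 1.94% of all genes were called lower. Their median was -0.59 and -0.44 after centring, at a GC content of 41.2%. HXT1, the low-affinity transporter induced by high glucose, went from 4643 to 15562 in the wild type and from 5598 to 6566 in Δscd6, a difference of -1.52 ± 0.44 (adjusted p = 0.023). HXT5, a transporter of slow growth and stress, went from 105 to 649 in the wild type and from 198 to 398 in Δscd6, a difference of -1.61 ± 0.34 (adjusted p = 0.00052). HXT6, a high-affinity transporter, went from 39.6 to 52.5 in the wild type and from 436 to 109.5 in Δscd6, a difference of -2.40 ± 0.52 (adjusted p = 0.00073). In the authors' deposited tables it fell in Δscd6 (-1.99, adjusted p = 1.2e-07) and did not pass in the wild type (0.41, adjusted p = 0.41). There Δscd6 was above the wild type by 3.46 untreated (adjusted p = 3.6e-17) and by 1.06 in azide (adjusted p = 0.066). HXT6 has a near-identical copy, HXT7, which gave -0.73 ± 0.84 (adjusted p = 0.67), and reads may be split between them. Of the 20 list members 7 have such a copy, so the list median carries the same uncertainty. The member outside the naming rule was MTH1, a repressor of HXT genes (-1.21, adjusted p = 0.028). HXT1 (-1.50, adjusted p = 0.047) and HXT5 (-1.53, adjusted p = 0.0025) were called after centring, as was HXT6. The glucose-dependent repressors MIG2 and MIG3 rose in the wild type in the authors' deposited table (0.66 and 1.18) and differed by -1.31 ± 0.34 (adjusted p = 0.0076) and -1.25 ± 0.35 (adjusted p = 0.018), with -0.96 (adjusted p = 0.13) and -1.01 (adjusted p = 0.13) after centring. In Δscd6 MIG2 fell (-0.65, adjusted p = 0.02) and MIG3 did not pass (-0.07, adjusted p = 0.85), by the authors' test.

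Some iron uptake genes gave lower responses in Δscd6. Of 31 members 0 were called higher and 3 lower, where 1.94% of all genes were called lower. Their median was -0.56 and -0.47 after centring, at 41% GC. FIT2, a wall mannoprotein that retains siderophore iron, went from 3096 to 4220.1 in the wild type and from 4309 to 1877 in Δscd6, a difference of -1.65 ± 0.41 (adjusted p = 0.0052). FIT1, of the same family, differed by -1.34 ± 0.34 (adjusted p = 0.0054), and ARN1, a siderophore transporter, by -1.21 ± 0.35 (adjusted p = 0.021). FIT1 was above the wild type in untreated Δscd6 cells in the authors' deposited table (1.19, adjusted p = 6.4e-05) and FIT2 was below it in azide (-1.17, adjusted p = 0.0032). After centring ARN1 was called (-1.20, adjusted p = 0.045), and FIT2 (-1.08, adjusted p = 0.18) and FIT1 (-0.42, adjusted p = 0.69) were not. The site TGCACCC of the iron regulator Aft1 stood before 22 of 31 (71%) list members, against 2.34% of all windows on either strand, as is known of this regulon. One match before each called member is shown.
FIT2, chrXV:1059254-1059283, plus strand: atttaaaacaaTGCACCCtaagttcaaatg
FIT1, chrIV:1505166-1505195, minus strand: taactatgccgTGCACCCtgttccgcaccc
ARN1, chrVIII:21213-21242, minus strand: atttatcaaaaTGCACCCataaaagcaggt

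Further genes of the naming rule with lower responses in Δscd6, still called after centring, were STP3, ROG3, BAP3, SNA4 and ATG22. STP3, the gene of a zinc finger protein, with a high mean count of 7475, went from 2455 to 15578 in the wild type and from 4953 to 6599.9 in Δscd6, a difference of -2.25 ± 0.39 (adjusted p = 3e-06). ROG3, an arrestin-related adaptor of the ubiquitin ligase Rsp5, went from 420.1 to 4500.0 in the wild type and from 538 to 1134 in Δscd6, a difference of -2.34 ± 0.44 (adjusted p = 2.9e-05). BAP3, a permease of branched-chain amino acids, went from 3555 to 4607 in the wild type and from 4639 to 2433 in Δscd6, a difference of -1.31 ± 0.30 (adjusted p = 0.0017), and was the only call among 17 amino acid permeases. The vacuolar protein SNA4 differed by -2.14 ± 0.38 (adjusted p = 1e-05), and ATG22, a vacuolar exporter of amino acids, by -1.44 ± 0.36 (adjusted p = 0.0061). Their centred differences were -1.68, -2.14, -1.22, -1.57 and -1.56, in the order first named.

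The rule also named genes with smaller rises or opposite signs that were mostly not called after centring, among them RRT5, whose difference was larger in size than those of the genes just given. RRT5 differed by -2.49 ± 0.49 (adjusted p = 8.1e-05), PET18 by -1.71 ± 0.50 (adjusted p = 0.023) and SUE1, which is needed for degradation of unstable cytochrome c, by -1.72 ± 0.52 (adjusted p = 0.031). ASK1, a subunit of the kinetochore complex DASH, differed by -1.62 ± 0.34 (adjusted p = 0.00046), ISC1, an inositol phosphosphingolipid phospholipase C, by -1.75 ± 0.56 (adjusted p = 0.044), and BDH2, a relative of butanediol dehydrogenase, by -2.02 ± 0.49 (adjusted p = 0.0035). TPO3, a polyamine transporter with a near-identical copy, differed by -1.29 ± 0.35 (adjusted p = 0.012), and LYS20, a homocitrate synthase with such a copy, by -0.98 ± 0.30 (adjusted p = 0.034). Of these 8 genes PET18 alone was called after centring (-1.86, adjusted p = 0.021).

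Phosphate genes were called in both directions. PHO81, an inhibitor of the Pho80-Pho85 kinase, gave 1.27 ± 0.34 (adjusted p = 0.011) and VTC3, a subunit of the polyphosphate polymerase, 1.18 ± 0.30 (adjusted p = 0.0065), both higher in Δscd6. PHO91, a vacuolar phosphate transporter, gave -1.05 ± 0.29 (adjusted p = 0.015), lower in Δscd6. Outside the naming rule, VTC2 of the same polymerase was called higher (0.90, adjusted p = 0.042) and the acid phosphatase PHO5 lower (-1.01, adjusted p = 0.026). The 23 genes had a median of 0.05, and after centring none of these 5 was called, with PHO91 nearest (-0.97, adjusted p = 0.055).

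**Figure D4:**
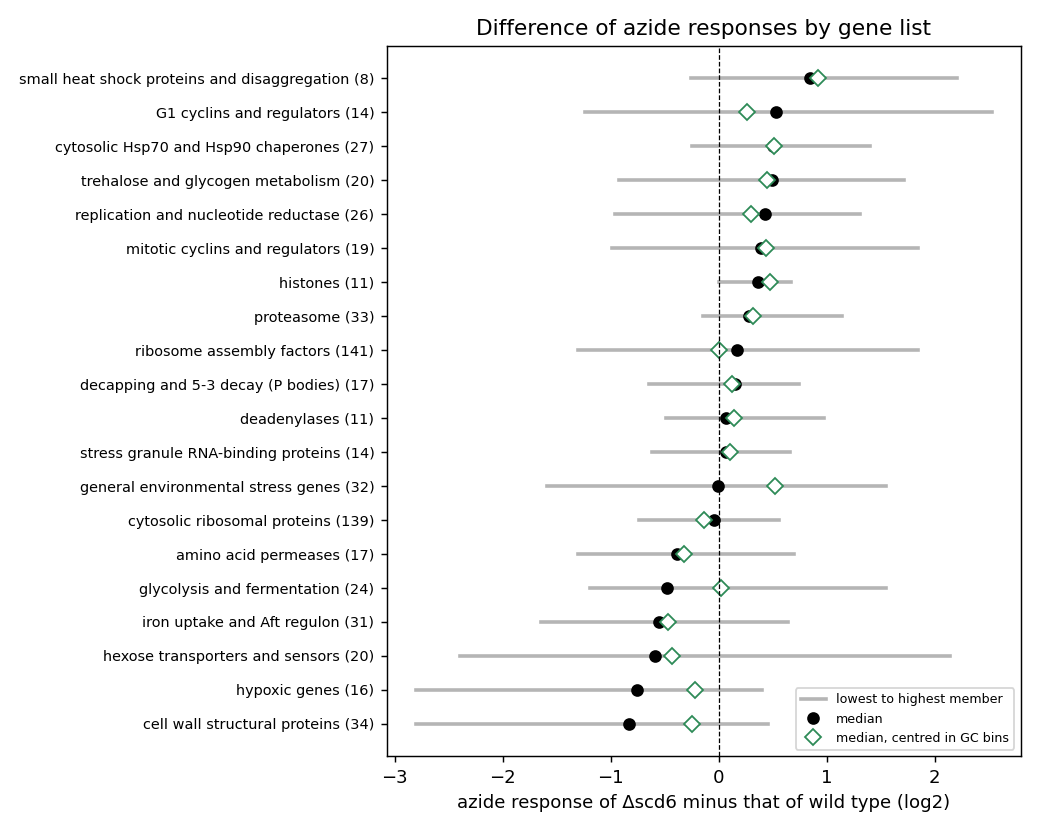
For 20 gene lists, with the number of measured genes in brackets, the black circle is the median difference of azide responses (log2, Δscd6 minus wild type), the open diamond the median after centring in GC bins, and the grey line runs from the lowest to the highest member. Wall proteins have a median of -0.83 that becomes -0.25 after centring, while the Hsp70 and Hsp90 list stays at 0.50 and 0.51.

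The genes of RNA granules themselves gave no difference that passed, apart from SCD6. None of 17 decapping and decay genes was called, with a median of 0.15 and a range of -0.65 to 0.75. XRN1, the main cytoplasmic exonuclease, had the largest difference, 0.75 ± 0.36 (adjusted p = 0.23), with a 95% interval of 0.03 to 1.46. The interval was -0.24 to 0.91 for DCP2, the decapping enzyme, and -0.58 to 1.07 for DHH1, a helicase that activates decapping. PAT1, a decapping activator, had an interval of -1.30 to 0.28. Differences within these intervals were not resolved for these genes. None of 11 deadenylase genes was called, with a median of 0.07, and CDC39, the scaffold of Ccr4-Not, gave 0.97 ± 0.37 (adjusted p = 0.11). None of 14 stress granule genes was called, with a median of 0.06, and PAB1, the poly(A)-binding protein, gave 0.66 ± 0.38 (adjusted p = 0.31), which was also the largest of the 9 cap-binding genes. For TIF4631 and TIF4632, the genes of eIF4G, the intervals were -0.18 to 0.98 and -0.04 to 1.14. Of 11 RGG-motif genes SCD6 alone was called, with a list median of -0.08, and SBP1 gave 0.49 ± 0.31 (adjusted p = 0.37).

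Lists of cytochrome c oxidase assembly, autophagy, amino acid synthesis under Gcn4 and multidrug transport had 1 called member each. These were COX16, an assembly factor (1.24, adjusted p = 0.041), and ATG22, LYS20 and TPO3, given above. No member was called in the lists of RNA polymerase I and III, aminoacyl-tRNA synthetases, endoplasmic reticulum folding, the chaperonin TRiC, stress regulators, the tricarboxylic acid cycle, cytochrome c oxidase subunits, the bc1 complex, ATP synthase, heme, ergosterol, mevalonate, fatty acid and purine synthesis, signalling mucins or meiosis. Their medians ran from -0.31 for the mucins to 0.45 for the synthetases. Among the oxidase subunits COX26 gave 1.91 ± 0.65 (adjusted p = 0.064).

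The largest differences of all lay in repeated and mitochondrial sequences, where counts are uncertain. YRF1-4 and YRF1-5, telomeric helicase genes of many near-identical copies, went from 69.7 to 34.7 in the wild type and from 2136 to 35.9 in Δscd6 for the first and from 30.7 to 16.7 in the wild type and from 2235 to 18.7 in Δscd6 for the second. The differences were -4.89 ± 0.48 (adjusted p = 5.4e-21) and -6.02 ± 0.57 (adjusted p = 1.9e-22). Both lay in the untreated state, where the levels of Δscd6 were high: the authors' deposited table put Δscd6 above the wild type by 4.94 and 6.18 untreated and by 0.05 and 0.16 in azide. The sodium pump gene ENA2 (-6.54) and the copper metallothionein genes CUP1-1 (-5.26) and CUP1-2 (-4.60), named after their values were seen, had the same pattern at mean counts under 100. Of 174 tested genes with a near-identical copy (at least 95% identity over at least 50% of the coding length), 25 were called (14.4%), 18 of them lower. Over all genes 4.12% were called. No source used here says how reads of such copies were counted.

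Of 8 mitochondrially encoded frames 6 were called higher, where 2.18% of all genes were, with a median of 3.48. COX1, a subunit of cytochrome c oxidase, went from 255.2 to 66.1 in the wild type and from 59 to 210.2 in Δscd6, a difference of 3.78 ± 1.00 (adjusted p = 0.0097). The response was positive in both deletion strains (1.83 in Δscd6 and 2.40 in Δsbp1) and negative in the wild type (-1.95) in the authors' deposited tables. AI1, a frame within a COX1 intron, differed by 5.49 ± 1.13 (adjusted p = 0.00028), and VAR1, a mitochondrial ribosomal protein with a mean count of 12, by 8.35 ± 2.70 (adjusted p = 0.049). These frames have a median of 25% GC, and COX1 shares sequence with its intron frames. COX1 was no longer called after centring (3.31, adjusted p = 0.055), and AI1 was (5.01, adjusted p = 0.0025). The lowest GC bin held mostly nuclear genes of higher GC content, such as SWI4 at 34.6%. Centring therefore could not set these frames against genes of like GC content, and neither outcome is informative for them.

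A difference of responses can come from the untreated state, from azide, or from both. Of the 261 called genes, the authors' own test of Δscd6 against the wild type was passed by 63 in untreated cells alone, by 102 in azide alone, by 11 in both and by 85 in neither. Over all genes that test called 2.52% untreated and 4.31% in azide. Genes called higher had a median strain difference of -0.57 untreated and 0.70 in azide, and genes called lower 0.77 and -0.80. In 239 of the 261 the strain differences had opposite signs in the 2 states. The difference that chose these genes is the strain difference in azide minus that in untreated cells. Opposite signs and mirrored medians thus follow in part from that choice, and they carry no test. TIR4 and SNA4 passed in both states with opposite signs, PCL1 and BTN2 passed in azide alone, and YRF1-4 in untreated cells alone. By GC content, strain differences had a Spearman rho of 0.46 untreated and -0.33 in azide across genes. For Δsbp1 against the same wild type libraries these were 0.25 and -0.31, so a gradient of the same direction was present there too. The azide responses had a rho with GC content of 0.11 in the wild type, -0.28 in Δscd6 and -0.15 in Δsbp1. For the response of Δscd6 minus that of Δsbp1 it was -0.13, against -0.54 for Δscd6 minus the wild type.

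**Figure D5:**
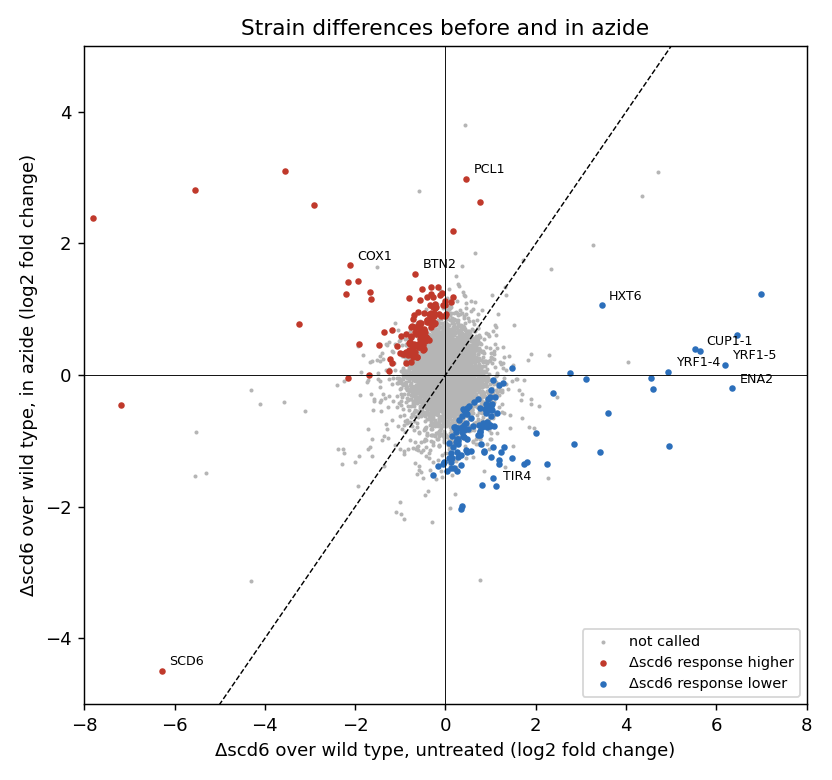
Each point is a gene, with Δscd6 over the wild type in untreated cells on the horizontal axis and in azide on the vertical axis (log2 fold changes), and the dashed line marks equal strain differences in both states. SCD6 lies at the lower left, YRF1-4, YRF1-5, ENA2 and CUP1-1 are high in untreated Δscd6 alone, and PCL1 is high in azide.

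Set beside Δsbp1, whose azide response shares no library with that of Δscd6, 342 of 6142 genes (5.57%) had a different response in Δscd6, tested in the same way on the azide responses alone. Centring these differences in GC bins gave 283 calls. PCL1 responded by -3.92 in the wild type, -1.39 in Δscd6 and -5.95 in Δsbp1 in the authors' deposited tables, and Δscd6 minus Δsbp1 was 4.56 ± 0.43 (adjusted p = 3e-22). For CLN1 that difference was 2.31 ± 0.35 (adjusted p = 1.3e-08), for CLB2 2.26 ± 0.36 (adjusted p = 8.6e-08) and for RNR1 1.92 ± 0.35 (adjusted p = 6.4e-06). SPB1 gave 3.08 ± 0.37 (adjusted p = 2.4e-13), RRP12 2.44 ± 0.44 (adjusted p = 5.3e-06) and RRP5 2.45 ± 0.35 (adjusted p = 9.2e-10). Each of these genes thus gave a higher response in Δscd6 than in either other strain. Both comparisons use the same Δscd6 libraries, and the genes here and below were chosen by the comparison with the wild type. The comparison with Δsbp1 is therefore no independent support for that difference. In the test against the wild type RNR1, RRP12 and RRP5 were not called after centring (adjusted p = 0.075, adjusted p = 0.13 and adjusted p = 0.12).

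Some other named genes differed from Δsbp1 and some did not. GSY1 gave 1.88 ± 0.36 (adjusted p = 2.1e-05), HXK1 1.44 ± 0.35 (adjusted p = 0.0019), BTN2 1.53 ± 0.43 (adjusted p = 0.012) and PHR1 1.54 ± 0.36 (adjusted p = 0.001), all higher in Δscd6. In the authors' deposited table untreated Δsbp1 was above the wild type for HXK1 (2.61, adjusted p = 1e-20) and GSY1 (1.20, adjusted p = 0.0002). For BTN2 it was below (-1.16, adjusted p = 0.0072). Rebuilt means in azide were 10640 in Δsbp1 and 3783 in Δscd6 for HXK1, and 2815 and 3043 for GSY1. HXT5 gave -1.71 ± 0.34 (adjusted p = 5.5e-05), HXT1 -1.40 ± 0.44 (adjusted p = 0.033), STP3 -1.67 ± 0.38 (adjusted p = 0.00076) and ROG3 -1.57 ± 0.43 (adjusted p = 0.0083), all lower. For TSA2 the difference was 0.87 ± 0.36 (adjusted p = 0.14), for TIR4 -0.92 ± 0.44 (adjusted p = 0.25), for MIG2 -0.72 ± 0.34 (adjusted p = 0.23) and for BAP3 -0.56 ± 0.30 (adjusted p = 0.31). Further named genes that did not pass were HSP82, at 0.60 ± 0.33 (adjusted p = 0.36), HSP78, at 0.63 ± 0.32 (adjusted p = 0.29), HAP4, at 0.99 ± 0.41 (adjusted p = 0.14), and SWI4, at 0.99 ± 0.34 (adjusted p = 0.065). CLB6 gave 1.43 ± 0.49 (adjusted p = 0.054), FIT2 -0.99 ± 0.41 (adjusted p = 0.15), ARN1 -0.57 ± 0.35 (adjusted p = 0.43), SPI1 -0.68 ± 0.40 (adjusted p = 0.38), FLO11 -1.32 ± 0.56 (adjusted p = 0.16) and PIR3 -0.74 ± 0.43 (adjusted p = 0.38). None of these was shown to differ between the deletion strains. GPX1 responded by 3.04 in Δscd6 and 3.13 in Δsbp1 in the authors' deposited tables, and COX1 by 1.83 and 2.40, with differences of -0.09 ± 0.41 (adjusted p = 0.96) and -0.57 ± 1.01 (adjusted p = 0.86).

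The differences also followed gene length. Of 5 equal groups of rising coding length, the shortest had a median difference of -0.05 and the longest, from 2100 bases, one of 0.33. The longest group held 69 of the genes called higher and 19 of those called lower, against 11 and 28 in the shortest. Across genes the Spearman rho of the difference with length was 0.22, and 0.09 after centring in GC bins. Genes with a smaller fall in Δscd6 had a median length of 2818.5 bases, and the whole set of matched genes one of 1209. With centring in length bins, 61 genes were called higher and 116 lower. By chromosome the median difference lay between -0.14 and 0.12 for every nuclear chromosome and at 3.48 for the mitochondrial one.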

How the data were processed

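Total RNA was extracted with hot phenol and made into libraries with an NEBNext kit, per the labels' protocols, and groups were taken from the sample titles. The submitters' processing notes list STAR 2, Picard, featureCounts and edgeR, with no roles or settings. No source used here gives the build, the annotation, the strandedness or how multiply matching reads were treated, so overlapping genes on opposite strands may not be told apart.

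The 7 tables deposited by the authors hold, per the file headers, a mean normalised count (a signal on a linear scale, equal in all tables), a fold change (a ratio), a log2 fold change and a p-value with its adjusted p-value. A Benjamini-Hochberg adjustment of the authors' p-value returns their adjusted p-value to within 4.6e-08. Depth per library is unknown here, and no interval that needs it is given.

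The size of a log2 fold change, where at least 0.02, was divided by the normal quantile belonging to its p-value to give its standard error. Variances were summed by 2 routes, over the azide responses and over the strain comparisons, and the larger sum was used; their ratio had a median of 1.00. The difference of responses equalled the difference of strain comparisons to within 0.001. The test was run on simulated data with normal errors of the implied sizes and p-values from the same normal formula. Such data cannot show whether the authors' p-values follow that formula, and they hold no GC gradient. Length and GC content come from RefSeq R64 for 5764 of 6352 genes, and near-identical copies from blastn 2.17.0. The work used scipy 1.17.1, numpy 2.4.6, pandas 2.3.3, Python 3.11.15 and, for figures, matplotlib 3.10.9.

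The members, the 57 gene lists, the tests and the motifs were chosen with earlier results of these data known. The naming rule takes the 8 largest differences of each class among called genes with a mean normalised count of at least 100 and a gene name, without YRF1, TAR1, Ty, dubious and noncoding genes. It adds from each list, at any count, the 3 called members with the largest differences, or, with none called, the member with the largest difference. SCD6, SBP1, ANT1 and NAT3 are added. ENV11, YDR215C and CDC21 at the limit, and the genes said to lie outside the rule, were named after their values were seen. The alternatives tried are given with their effects in the closing section.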

Additional observations from a re-analysis of the deposited data

Results flagged for a closer look

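The azide responses of Δscd6 and the wild type differed by the test of the difference itself in 261 genes, 138 higher and 123 lower, and those of Δscd6 and Δsbp1 in 342 genes. Each gene below is one of the 261, with its log2 difference between Δscd6 and the wild type. Opposite sign refers to the signs of the 2 values alone. Both responses passed the authors' own test in only 24 of the 123 genes of opposite sign. SNA4, for example, did not pass that test in Δscd6 (-0.02, adjusted p = 0.97).

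Smaller falls in Δscd6 were found for PCL1 (2.53), CLN1 (2.03), CLB6 (1.85), SPB1 (1.84), CLB2 (1.65), PDS5 (1.62), RRP12 (1.57), MYO1 (1.57), GIN4 (1.42), SWI4 (1.36), POL30 (1.30), PHO81 (1.27), RRP5 (1.25), VTC3 (1.18), RNR1 (1.14) and MET6 (1.12). Larger rises were found for SIP4 (2.40), BTN2 (2.21), PHR1 (2.03), FMP33 (1.88), GSY1 (1.72), FMP16 (1.58), HXK1 (1.55), HAP4 (1.52), TSA2 (1.51), APJ1 (1.40), GPX1 (1.36), GPH1 (1.32), HSP82 (1.17) and HSP78 (1.06). Responses of opposite sign, higher in Δscd6, were found for VAR1 (8.35), AI1 (5.49), COX1 (3.78), SCD6 (1.79), ADR1 (1.36), COX16 (1.24), SWI5 (1.20), RPN9 (1.14) and MRP7 (1.00).

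Smaller rises in Δscd6 were found for RRT5 (-2.49), ROG3 (-2.34), STP3 (-2.25), SUE1 (-1.72), PET18 (-1.71), PIR3 (-1.62), ASK1 (-1.62), HXT5 (-1.61), SPI1 (-1.59), HXT1 (-1.52) and TPO3 (-1.29). Larger falls were found for YRF1-5 (-6.02), YRF1-4 (-4.89) and FIT1 (-1.34). Responses of opposite sign, lower in Δscd6, were found for TIR4 (-2.80), HXT6 (-2.40), SNA4 (-2.14), BDH2 (-2.02), FLO11 (-1.82), ISC1 (-1.75), FIT2 (-1.65), ATG22 (-1.44), HAP3 (-1.32), MIG2 (-1.31), BAP3 (-1.31), MIG3 (-1.25), ARN1 (-1.21), PHO91 (-1.05) and LYS20 (-0.98).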

How the results depend on the processing

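Counts of called genes stayed within 1.5 times of 261, 138 and 123 with either route to the standard error alone, a minimum fold change of 0.1, centring on the median of all genes, a mean count of at least 100, a difference of at least 1 in size, genes matched to the reference only, and without near-identical copies. With equal totals 710 genes were called, 614 of them higher. At an adjusted p under 0.01 there were 105, 47 higher and 58 lower. Centring in GC bins left 88, 38 higher and 50 lower, centring in length bins 61 higher, and centring in both 95, 38 higher and 57 lower. With the authors' adjusted p under 0.01, the split by state became 34 in untreated cells alone, 1 in both and 141 in neither. The count against Δsbp1 became 206 at 0.01. The cause of these changes was not tested.

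Of 68 called genes named by the rule, 32 were called after centring in GC bins, 32 after centring in GC and length bins and 50 after centring in length bins. No called gene of the rule changed sign under the alternatives run. Among those not called, the difference of ANT1 turned to -0.013 with centring on the median, to -0.05 in GC bins and to -0.0265 in both, the difference of NAT3 to 0.0838 with equal totals, the difference of GCV3 to 0.12 and 0.0865, the difference of RPA14 to 0.22 and 0.22, and the difference of HIS3 to 0.44 and 0.49 in GC bins and in both. No paired analysis was possible because the tables hold no values per library, and leaving out each replicate was not run for the same reason. The implied standard errors limit the called differences to 0.87 or more in size.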

Other observations

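The centring in GC bins called 14 genes that were not called without it, named here after their values were seen. Of these, 8 had the higher response in Δscd6: the centred difference was 1.18 for SSA4, a stress-induced Hsp70, 1.15 for HSP10, the mitochondrial co-chaperonin, 2.26 for COX26, a subunit of cytochrome c oxidase supercomplexes, 0.93 for LPD1, dihydrolipoamide dehydrogenase, 1.04 for MDH2, the cytosolic malate dehydrogenase, 1.02 for ALD4, a mitochondrial aldehyde dehydrogenase, 1.76 for ROQ1, which alters the specificity of the ubiquitin ligase Ubr1, and 1.08 for CAR1, arginase. Lower responses were those of GPI1 (-1.06) and GPI2 (-1.22), both of the first step of glycosylphosphatidylinositol anchor synthesis, GPC1 (-1.34), an acyltransferase of glycerophosphocholine, ZIP2 (-1.40), YGR035C (-1.37) and YKR015C (-1.41). Without centring their differences ran from -1.15 for YGR035C to 1.91 for COX26.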
